A study of Homo sapiens with 4 samples.

Results

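The genes described here encode the HLA class II antigen presentation machinery: HLA-DRA, HLA-DPA1, HLA-DPB1, HLA-DMA, HLA-DMB, HLA-DOA, HLA-DOB, CD74 and CIITA. Members were the genes for which a row of the deposited table carried that symbol and no other, and a gene's level was the mean of its rows. Rows of the same HLA gene can share probes, so closeness between them is not independent support. Of the 9 genes named, 7 had such rows, among 18377 genes measured in the series. HLA-DRA and CD74 had rows only in company with another gene, and those rows are given apart. The set was selected on known function after their log2 levels on these 4 arrays had been seen, so the values are a description and carry no test.

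HLA class II molecules are pairs of an alpha and a beta chain that carry peptides from endosomes to the cell surface, where CD4 T cells read them. The invariant chain, CD74, fills the groove of a new class II molecule, HLA-DM exchanges its remnant for peptide, and HLA-DO restrains HLA-DM. CIITA is the coactivator that switches the class II genes on. It does not bind DNA itself and acts through the RFX complex, CREB1 and NF-Y, which sit on the X and Y boxes of class II promoters. B cells, dendritic cells and macrophages make class II constitutively, while most epithelial cells make it after exposure to interferon gamma.

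RNA came from HuCCT1, an established human cholangiocarcinoma (bile duct cancer) cell line, and was hybridised to Affymetrix Human Gene 1.0 ST arrays, which probe transcripts along their length. The labels give 1 array to untreated cells, 1 to cells given VPA, 1 to cells given GEM and 1 to cells given the GEM_VPA combination. All 4 arrays share the cell line, and VPA and GEM are read here with their usual meanings, valproic acid, which inhibits histone deacetylases, and gemcitabine, a nucleoside analogue. The labels name no dose, exposure time or culture batch. With 1 array per condition there is no replicate error and no p-value, and the precision of every value is limited by having so few arrays.

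Levels are log2 intensities, so a difference of 1 is a 2-fold difference. A gene was counted as different when its levels differed by at least 1 and the higher level was at or above the median of all rows on its array, which was 7.87 to 7.92. Levels below that median may lie near background, where differences are compressed. The untreated and GEM_VPA arrays resembled each other (Pearson r of 0.996 over 28869 rows), as did the VPA and GEM arrays (0.996), while the other pairs of arrays correlated at 0.984 to 0.987. The SD of log2 differences over genes, estimated robustly, was 0.147 between untreated and GEM_VPA and 0.158 between VPA and GEM, against 0.253 to 0.27 for the other pairs. The arrays were assigned to conditions by their labels, and that assignment was not tested. Every difference between conditions and every departure from additivity below rests on it. Of 8 measured epithelial markers, all 8 were at or above the array median on each array, with KRT19, a keratin of bile ducts, at 12.94 to 13.68 and EPCAM at 12.63 to 12.84.

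On the array labelled VPA, 4 of the 7 class II members were at least 2-fold higher than on the untreated array. These were both HLA-DP chains, HLA-DMA and HLA-DOB, at 2.88-fold to 3.99-fold. Among all 11611 genes at level in that comparison, 1.9% were at least 2-fold higher and 2.09% at least 2-fold lower. GEM alone gave a smaller difference, with HLA-DPA1 and HLA-DOB 2.25-fold and 2.26-fold higher, where 1.48% of 11593 genes at level were at least 2-fold higher and 3.01% lower. The GEM_VPA array had no member that differed 2-fold from untreated, where 0.122% of 11489 genes were higher and 0.0261% lower, so a count of 0 in 7 is near the background. CIITA lay between 7.77 and 7.87 on all 4 arrays.

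The promoters of the class II chain genes are shown because CIITA works through motifs in this stretch. Whether the motifs bear on the differences between arrays was not tested. Each is the 150 bases before the gene's start in RefSeq, build GRCh38.p14, read 5′ to 3′ on the gene's strand. Capitals mark the letters AGNNACNG, taken as a core of the X box, and ATTGG, the inverted CCAAT of the Y box, each on either strand. Overlapping matches run together in capitals.
HLA-DPA1 (chr6:33073650-33073799, minus strand): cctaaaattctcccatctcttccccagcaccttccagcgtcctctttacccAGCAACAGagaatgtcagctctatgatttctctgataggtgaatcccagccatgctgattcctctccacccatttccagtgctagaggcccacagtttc
HLA-DPB1 (chr6:33075840-33075989, plus strand): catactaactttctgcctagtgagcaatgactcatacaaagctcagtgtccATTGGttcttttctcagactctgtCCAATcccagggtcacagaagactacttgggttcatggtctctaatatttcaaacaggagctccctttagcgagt
HLA-DMA (chr6:32953098-32953247, minus strand): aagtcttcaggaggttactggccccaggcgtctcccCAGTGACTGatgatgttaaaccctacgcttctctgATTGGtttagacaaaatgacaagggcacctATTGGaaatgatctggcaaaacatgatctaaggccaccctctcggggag
HLA-DMB (chr6:32941029-32941178, minus strand): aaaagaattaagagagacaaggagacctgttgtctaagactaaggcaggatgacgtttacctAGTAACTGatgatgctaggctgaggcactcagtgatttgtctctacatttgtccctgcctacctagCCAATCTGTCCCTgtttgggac
HLA-DOA (chr6:33009592-33009741, minus strand): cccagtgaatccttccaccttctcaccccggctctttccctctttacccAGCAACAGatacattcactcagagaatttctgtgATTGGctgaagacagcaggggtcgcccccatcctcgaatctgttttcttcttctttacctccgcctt
HLA-DOB (chr6:32817003-32817152, minus strand): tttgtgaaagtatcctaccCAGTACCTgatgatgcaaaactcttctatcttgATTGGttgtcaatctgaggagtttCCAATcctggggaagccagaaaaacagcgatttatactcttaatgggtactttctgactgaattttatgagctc

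RefSeq's promoter table matched 7 of the 9 genes with 8 windows, of which HLA-DPA1 had 2, and the window printed is the one with a match. HLA-DRA and CIITA were not matched. In the 250 bases before the start, HLA-DMA and HLA-DOA carried the X box core followed on the same strand by the Y box core, with 15 to 35 bases between them. That arrangement was found in 0.51% of 35116 windows of the same length. HLA-DPA1 and HLA-DMB carried AGCAACAG and AGTAACTG on their own strand, without a Y box core at that distance. HLA-DPB1 carried 2 Y box cores and no X box core. HLA-DOB carried 2 Y box cores and, on the opposite strand, 1 X box core. Boxes with other letters would not be marked. Taken alone the cores are common, the X box core in 40.9% of windows and the Y box core in 32.0%. The CD74 window, counted among the 8 but not printed, carried 1 X box core and 1 Y box core, both on the opposite strand. The STAT-type palindrome TTCNNNGAA was in 0 of the 8 windows and in 6.57% of all windows. A count of 0 in 8 is near that share, and the CIITA promoter was not searched.

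HLA-DP is one of the classical class II molecules that present peptide at the surface. HLA-DPA1, its alpha chain, was at 7.27 on the untreated array, 9.26 with VPA, 8.44 with GEM and 7.63 with GEM_VPA. Its VPA level was 2.00 above untreated, or 3.99-fold, and only 0.189% of genes at level were as high. The level with GEM was 1.17 above untreated, and the combination lay 1.63 below VPA and 0.81 below GEM. Its 3 rows gave 1.89 to 2.05 for VPA over untreated and 0.97 to 1.27 for GEM over untreated, so 1 choice of row puts the GEM difference just under the 2-fold limit.

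HLA-DPB1, the beta chain of the same molecule, is read from the neighbouring promoter in the opposite direction. It was at 7.24 on the untreated array, 9.12 with VPA, 7.72 with GEM and 7.85 with GEM_VPA. The VPA array stood apart from the other arrays, 1.88 above untreated (3.69-fold) and 1.40 above GEM (2.64-fold). HLA-DPB1 was the only member at least 2-fold different between the VPA and GEM arrays, where 0.27% of 11477 genes were at least 2-fold higher with VPA and 0.0349% lower. GEM_VPA was 0.07 to 0.22 above GEM on its 3 rows, and with no replicate the order of these arrays is not settled. HLA-DPA1 and HLA-DPB1 thus shared their highest and lowest arrays, while GEM over untreated was 1.17 and 0.48. HLA-DPB1 was at or above the array median on the VPA array only, so its difference with GEM may be compressed.

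**Figure D1:**
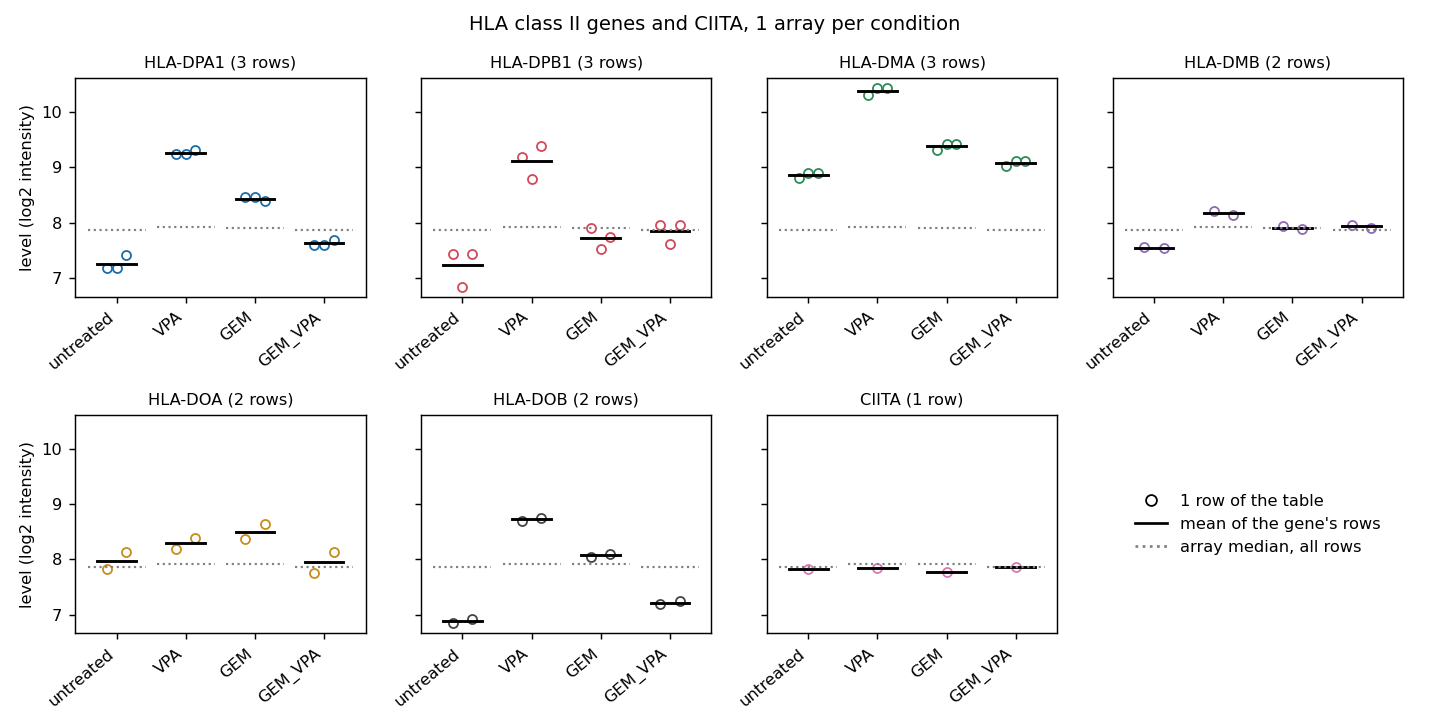
Level (log2 intensity) of the 7 members on the 4 arrays; each circle is 1 row of the table, the black line the mean of a gene's rows and the dotted line the median of all rows on that array. The VPA array is the highest for 5 of the 6 HLA genes, from 8.18 for HLA-DMB to 10.39 for HLA-DMA, while CIITA stays between 7.77 and 7.87.

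HLA-DM is the non-classical molecule that loads peptide. HLA-DMA, its alpha chain, was at 8.86 on the untreated array, 10.39 with VPA, 9.39 with GEM and 9.08 with GEM_VPA, above the array median on all 4. VPA was 1.52 above untreated (2.88-fold) and the combination 1.31 below VPA. The VPA array was also 0.99 above GEM, which is just under the 2-fold limit and was 1.01 when the columns were quantile normalized once more. The 3 rows gave nearly the same values, 1.51 to 1.53 for VPA over untreated, but they may share probes.

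HLA-DMB, the beta chain, was at 7.55 on the untreated array, 8.18 with VPA, 7.91 with GEM and 7.94 with GEM_VPA. The order of arrays was that of HLA-DPB1, but the range was 0.63 and no comparison reached 2-fold. VPA was 0.63 above untreated, and 5.80% of genes at level were as high. GEM_VPA and GEM differed by 0.02 on both rows. The HLA-DM chains, which neighbour each other on chromosome 6, therefore had differences of unlike size with VPA.

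HLA-DO, the modulator of HLA-DM, had chains of unlike behaviour. HLA-DOB, the beta chain, was at 6.90 on the untreated array, 8.72 with VPA, 8.07 with GEM and 7.22 with GEM_VPA. VPA was 1.83 above untreated (3.54-fold), GEM 1.17 above (2.26-fold), and the combination was 2.83-fold below VPA. The untreated level was below the array median, so the fold may be understated. In the assembly GRCh38.p14, HLA-DOB is followed by the class I genes TAP2, PSMB8, TAP1 and PSMB9, which lay between -0.08 and 0.51 for VPA over untreated.

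HLA-DOA, the alpha chain, was at 7.98 on the untreated array, 8.29 with VPA, 8.50 with GEM and 7.95 with GEM_VPA. It was the member whose highest array was GEM and not VPA among the 6 HLA genes, by 0.21. GEM was 0.52 and VPA 0.31 above untreated. GEM_VPA differed from untreated by -0.07 and 0.01 on its 2 rows.

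CIITA, the coactivator, was at 7.82 on the untreated array, 7.84 with VPA, 7.77 with GEM and 7.87 with GEM_VPA, a range of 0.10. The difference of VPA over untreated was 0.02, and it turned to -0.03 when the columns were quantile normalized once more or centred on their medians. Its 1 row lies at the array median, where a difference in a weakly expressed transcript could be compressed. CIITA transcription starts from several promoters, and 1 row for the gene does not separate them. A 2-fold difference in CIITA RNA on any array was therefore not detected, at a level that may be near background.

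**Figure D2:**
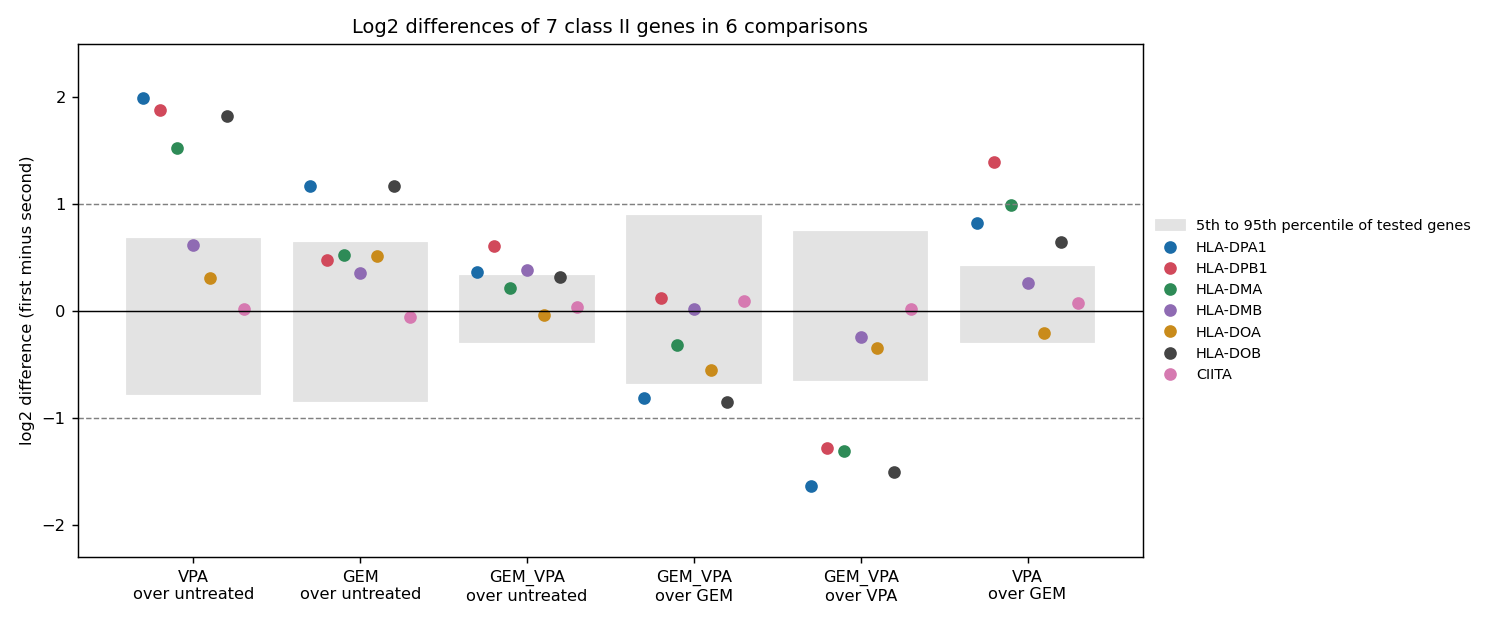
Log2 difference of each member in the 6 comparisons; grey boxes span the 5th to 95th percentile of genes at level and dashed lines mark 2-fold. HLA-DPA1, HLA-DPB1, HLA-DMA and HLA-DOB lie between 1.52 and 2.00 for VPA over untreated and between -1.28 and -1.63 for GEM_VPA over VPA.

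Counted together, the members had a median log2 difference of 1.52 for VPA over untreated, with 7 of 7 above 0, against -0.01 over all 18377 genes. One of these, CIITA, was within 0.02 of 0. For GEM over untreated the median was 0.52, with 6 of 7 above 0 and 2 at least 2-fold higher. For GEM_VPA over untreated the median was 0.33, with 0 of 7 past 2-fold. The comparisons with untreated share the untreated array, so their values are not independent of each other.

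The combination was then set against each agent alone. Over VPA, 4 of 7 members were at least 2-fold lower, HLA-DPA1, HLA-DOB, HLA-DMA and HLA-DPB1, where 1.68% of 11600 genes at level were and 1.48% were higher. The median of the members was -1.28, against -0.01 over all genes. VPA over untreated uses the same VPA array and counted the same 4 genes, so these counts are not independent. Over GEM, 0 of 7 members differed 2-fold, where 1.78% of 11638 genes were lower and 3.6% higher. HLA-DOB was at -0.85, HLA-DPA1 at -0.81, HLA-DOA at -0.55 and HLA-DMA at -0.31, while HLA-DPB1, CIITA and HLA-DMB lay between 0.02 and 0.12.

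If both agents acted independently on the log2 scale, their differences would add. The departure from that sum was -2.80 for HLA-DPA1, -2.67 for HLA-DOB, -1.84 for HLA-DMA and -1.76 for HLA-DPB1. It was -0.86 for HLA-DOA, -0.60 for HLA-DMB and 0.08 for CIITA. A departure of -1 or lower was found for 4 of 7 members and for 7.38% of 11808 genes at level. The value uses all 4 arrays, so it has no error, and it takes in the array-wide likeness of the untreated and GEM_VPA arrays. The part of that likeness in the members' departure was not tested.

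**Figure D3:**
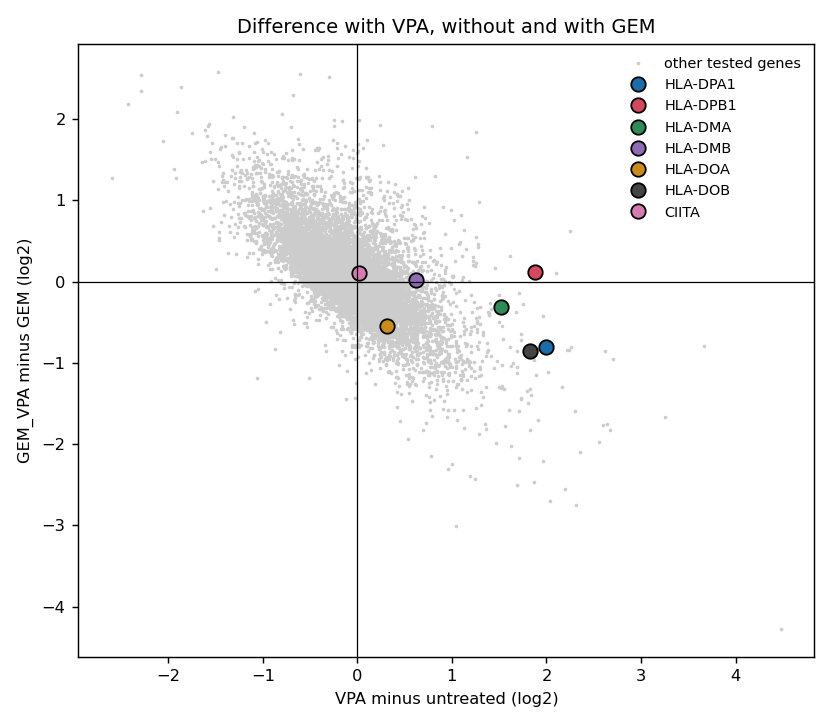
Log2 difference with VPA in the absence of GEM (horizontal) against the same difference in its presence (vertical); grey points are the other genes at level on at least 1 array. HLA-DPA1 and HLA-DOB lie at 2.00 and 1.83 on the horizontal axis but at -0.81 and -0.85 on the vertical one, while HLA-DPB1 lies at 1.88 and 0.12.

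Several rows of the array list a class II gene together with other genes, so that their signal cannot be given to a single gene. The largest differences among class II rows were on rows of this kind. The 3 rows listing HLA-DRB1, HLA-DRB3, HLA-DRB4, HLA-DRB5, HLA-DRB6 and HLA-DQB1 had a mean level of 8.61 on the untreated array, 11.55 with VPA, 10.47 with GEM and 9.44 with GEM_VPA. VPA was 2.84 to 3.14 above untreated on these rows, GEM 1.76 to 2.04 and GEM_VPA 0.76 to 0.98.

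The 3 rows listing HLA-DRA and HLA-DQA1 had a mean of 8.03 on the untreated array, 10.60 with VPA, 9.43 with GEM and 9.34 with GEM_VPA. They were 2.47 to 2.73 above untreated with VPA, and 1.23 to 1.42 above it with GEM_VPA. They differ in this from the 7 members, none of which was 2-fold different between GEM_VPA and untreated. The row that HLA-DQA1 has alone was at 6.58, 6.67, 6.81 and 6.60 in the same order of arrays, below the array median on all 4. The 4 rows listing HLA-DQB2 and HLA-DQB1 had means of 8.33, 9.23, 8.58 and 8.71 in that order, with VPA 0.53 to 1.22 above untreated and past 2-fold on 2 rows. Rows for HLA-DQA were lower, the 4 listing HLA-DQA2 and HLA-DQA1 having means of 7.10, 7.68, 7.03 and 7.37 with VPA 0.38 to 0.80 above untreated. The 1 row listing HLA-DRB1 and HLA-DQB1 was at 6.46, 6.94, 6.48 and 6.53, below the array median on all 4. With VPA, the rows listing HLA-DQB2 or HLA-DQA2 thus differed less from untreated than the rows listing HLA-DRA or several HLA-DRB genes. The row listing HLA-DRB1 and HLA-DQB1, 0.48 above untreated with VPA, did not share the larger difference. Rows of each kind list a DQ gene, so DR and DQ are not told apart here. The 1 row listing CD74 and ROS1 was at 7.61, 8.23, 8.47 and 7.72, with GEM the highest, and stayed under 2-fold in each comparison.

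**Figure D4:**
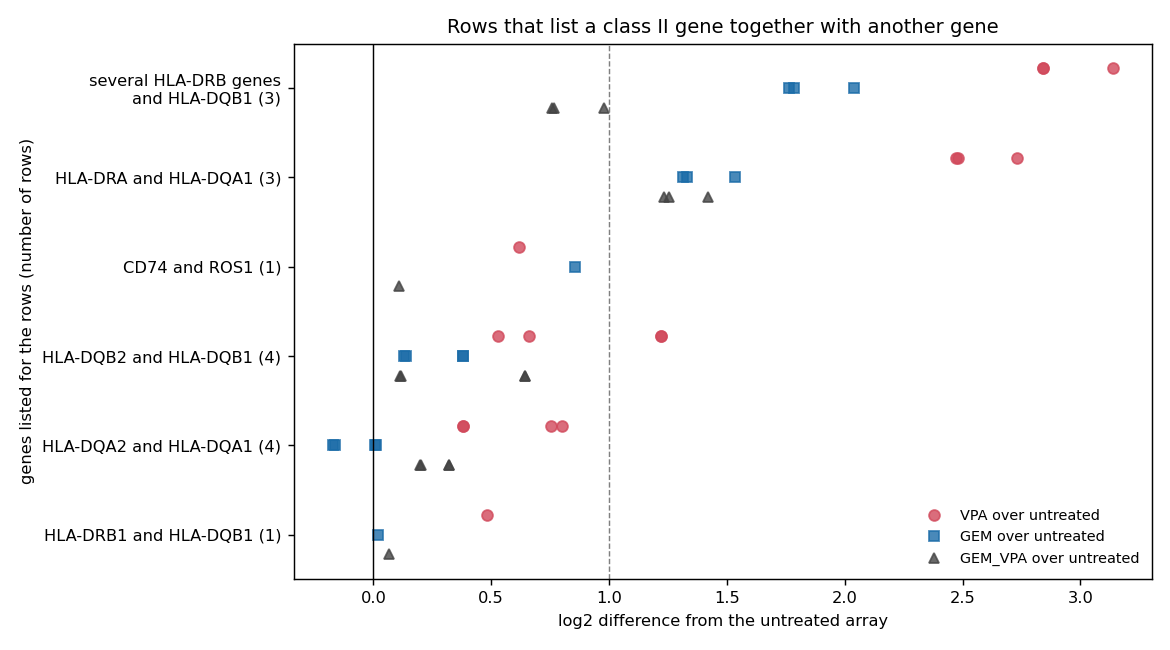
Log2 difference from the untreated array for rows that list a class II gene together with another gene; each mark is 1 row, and the dashed line marks 2-fold. VPA lies above GEM and GEM_VPA on the rows listing several HLA-DRB genes (2.84 to 3.14) and those listing HLA-DRA (2.47 to 2.73). It lies below GEM on the CD74 row (0.62 against 0.86).

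Other class II chain genes with a row of their own were few. HLA-DRB5, a second DR beta chain, was at 7.02 on the untreated array, 8.29 with VPA, 7.70 with GEM and 7.19 with GEM_VPA. It was 2.41-fold higher with VPA than untreated and 2.14-fold lower with the combination than with VPA. HLA-DQB1 (5.40 to 5.85) and the pseudogene HLA-DPB2 (6.36 to 6.79) stayed below the array median on all 4 arrays, as did HLA-DQA1. Class II copies can share probes, so a value for 1 of them may hold signal of another.

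Of 7 measured factors that bind class II promoters, 0 differed 2-fold for VPA or GEM over untreated, and their medians were -0.26 and -0.33. The shares over all genes at level were 1.9% higher and 2.09% lower for VPA, and 1.48% and 3.01% for GEM, so a count of 0 in a list this short is near the background. RFX5, the DNA-binding subunit of the RFX complex, was at 9.66 on the untreated array, 10.20 with VPA, 10.35 with GEM and 9.71 with GEM_VPA. NFYB, a subunit of NF-Y, ran the other way at 8.58, 7.88, 7.59 and 8.62, and was the only one past 2-fold, at 1.04 for GEM_VPA over GEM. Of 10 measured genes of the interferon gamma receptor pathway, 0 differed 2-fold in any of the 6 comparisons, whose shares over all genes at level ran from 0.0261% to 3.6% in 1 direction. A count of 0 in 10 genes is near those shares, and the same holds for the lists that follow. IFNG itself was at 5.20 to 5.58, below the array median on all arrays, and the transcription factor IRF1 was at 8.85, 8.50, 8.78 and 8.51. PTPN2, a phosphatase that dampens JAK and STAT signalling, was 0.97 lower with VPA and 0.72 lower with GEM than untreated.

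Of 15 endosomal processing genes, 0 differed 2-fold in any comparison, and their median was 0.16 with VPA and 0.04 with GEM. The asparaginyl endopeptidase LGMN was 0.71 above untreated with VPA, and the cathepsins CTSB and CTSD were 0.68 and 0.61 above. IFI30, the thiol reductase of endosomes, was at 12.49, 12.95, 13.07 and 12.22 in the order untreated, VPA, GEM and GEM_VPA. CTSS, the cathepsin that trims the invariant chain in professional presenting cells, stayed at 5.50 to 5.66. Of 15 class I presentation genes and 8 costimulation genes, 0 differed 2-fold in any comparison. The class I medians were 0.02 with VPA and 0.06 with GEM, with B2M, the class I light chain, at 0.56 and 0.52. The ligands CD80 and CD86 stayed below the array median on all arrays, and ICAM1 was 0.60 and 0.77 above untreated.

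**Figure D5:**
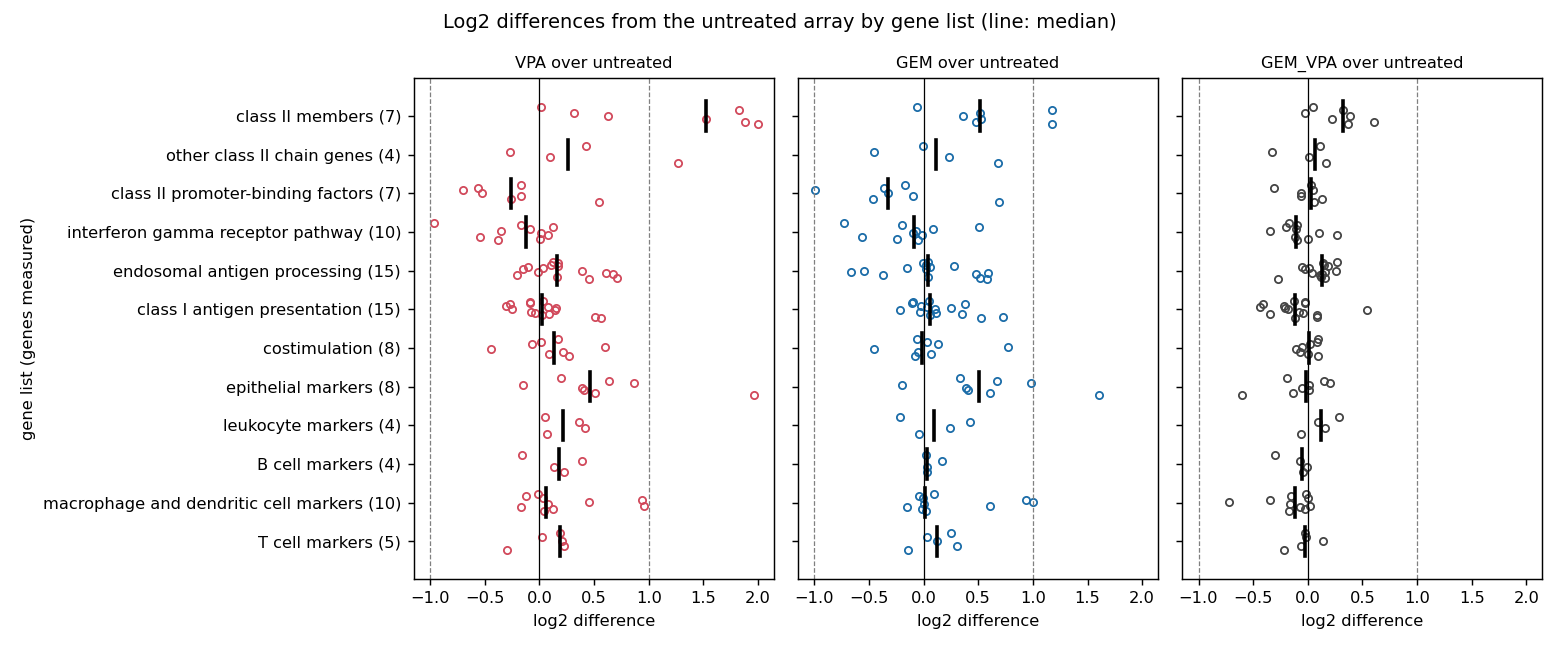
Log2 difference from the untreated array for the members and 11 other gene lists; each circle is 1 gene, the black line the list's median and dashed lines mark 2-fold. With VPA the members' median is 1.52, and the medians of the other lists lie between -0.26 and 0.46.

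Class II genes also mark leukocytes, so their markers were read on the same arrays. PTPRC, the pan-leukocyte antigen, stayed at 5.21 to 5.34 and the B cell antigen MS4A1 at 5.88 to 6.14, below the array median on all 4 arrays. Other markers were not low: CORO1A, an actin regulator of leukocytes, was at 8.39 to 8.89 and the T cell coreceptor gene CD8A at 8.01 to 8.28, both at or above the array median on all 4 arrays. The B cell factor PAX5, at 7.82 to 8.13, was above it on 3 arrays and the B cell receptor gene CD79B, at 7.72 to 8.18, on 2. The mean level of the 4 leukocyte markers was 6.86 on the untreated array, 7.08 with VPA, 6.96 with GEM and 6.98 with GEM_VPA. For the 4 B cell markers it was 7.31, 7.45, 7.37 and 7.20, and for the 5 T cell markers 6.96, 7.03, 7.07 and 6.92. For the 10 macrophage and dendritic cell markers it was 7.14, 7.37, 7.38 and 6.97. Of these 23 genes, 0 were 2-fold different for VPA or GEM over untreated, a count near the background shares given for those comparisons. Among the macrophage and dendritic cell markers, CD14, CD163, CSF1R, ITGAM, CD1C, FLT3 and CLEC9A stayed below the array median on all 4 arrays. The median difference of the 10 was 0.06 with VPA and 0.01 with GEM. The lysosomal protein CD68 was 0.94 above untreated with VPA and 0.93 with GEM, and the integrin ITGAX 0.96 and 0.61. The lysozyme gene LYZ was 0.45 and 1.00 above, with GEM just under the limit. CD68 and LYZ were at least 2-fold lower with GEM_VPA than with GEM (-1.28 and -1.72), and CD68 also lower than with VPA (-1.28). KRT7, a keratin of bile duct epithelium, was at 9.53, 11.50, 11.14 and 8.93, so it too was high on the arrays of the agents alone. The part of these markers in the class II differences was not tested.

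The genes whose profile over the 4 arrays was closest to that of HLA-DPA1, the member with the widest range, were HLA-DOB, FOLR1, CCN1, CHRNA6 and SLPI, among 11807 genes at level. Likeness was the Euclidean distance between profiles centred on their own mean, which was 0.143 for HLA-DOB, 0.15 for the folate receptor gene FOLR1 and 0.162 for the matricellular protein gene CCN1. It was 0.188 for CHRNA6, a nicotinic receptor subunit, and 0.217 for SLPI, a protease inhibitor of mucosal secretions. HLA-DMA ranked 35 and HLA-DPB1 ranked 99 by the same measure, at 0.509 and 0.682. HLA-DMB ranked 1066, HLA-DOA 1514 and CIITA 5428. A profile of 4 arrays is short, so many genes can lie close by.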

How the data were processed

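Total RNA of HuCCT1 cells was measured on 4 arrays, 1 per group. The deposited values are log2 intensities per row. The authors' normalization used GeneSpring GX 11.5 (per the labels' protocols) and RMA (per the submitters' processing notes). No genome build is named, and scanner files and detection calls were not used here. RMA equalises intensity distributions and compresses low values. Platform annotation gave 1 gene symbol to 19310 of 28869 rows, several to 1752 and none to 7807. Only rows with 1 symbol were named, and a gene took the mean of its rows. All 118 rows of the listed genes had current RefSeq symbols.

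Differences of log2 levels were counted at 2-fold, the ratio limits (2 and 0.5) stated by the authors, with the higher level at or above its array's median. There was no test. The members, lists and motifs were chosen with earlier results of these data known. Genes named were all members, list genes past 2-fold (up to 4 per list and comparison) and the 5 genes most like the widest-ranging member. Other genes named were chosen after their values were seen. Alternatives covered normalization, centring, level filter, fold limit and row choice. The counting code was run on simulated data with large differences planted in genes well above the array median. That run says nothing of genes near the median. Software was Python 3.11.15, numpy 2.4.6, pandas 2.3.3 and matplotlib 3.10.9.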

Additional observations from a re-analysis of the deposited data

Results flagged for a closer look

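For the same agent, the difference had opposite signs without and with the other agent in the members below, each side larger than the robust SD over genes of its own pair of arrays (0.264 and 0.27 for VPA, 0.261 and 0.253 for GEM). Each side is 1 pair of arrays and the difference between the pairs was not tested. The arrays as a whole run this way. Of 11808 genes at level, 29.5% met the same limits for VPA and 36.5% for GEM, and 74.1% and 84.4% had opposite signs at any size. The members' counts, 4 of 7 for VPA and 5 of 7 for GEM, are read against those shares, and nothing particular to class II genes is drawn from them.

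VPA minus untreated, and then GEM_VPA minus GEM, was 2.00 and -0.81 for HLA-DPA1, 1.52 and -0.31 for HLA-DMA, 0.31 and -0.55 for HLA-DOA, and 1.83 and -0.85 for HLA-DOB. GEM minus untreated, and then GEM_VPA minus VPA, was 1.17 and -1.63 for HLA-DPA1, 0.48 and -1.28 for HLA-DPB1, and 0.53 and -1.31 for HLA-DMA. In the same order it was 0.52 and -0.34 for HLA-DOA, and 1.17 and -1.50 for HLA-DOB. The limits were set after these values had been seen, and HLA-DMB, at 0.36 and -0.24 for GEM, missed them only on the second side.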

How the results depend on the processing

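No paired analysis was possible because each group has 1 array, and leaving out an array would remove a group. The count of members higher with VPA than untreated, 4, ran from 3 to 5 under the alternatives, and the median departure from additivity, -1.76, from -1.70 to -1.76. For GEM over untreated the count of 2 ran from 0 to 3, with 0 at 3-fold and 1 with 1 row per gene. For GEM_VPA over VPA the count of 4 became 1 at 3-fold. For GEM_VPA over GEM the count of 0 became 2 at 1.5-fold. For VPA over GEM the count of 1 became 2 when the columns were quantile normalized once more, 4 at 1.5-fold and 0 at 3-fold. When rows listing HLA-DRA or CD74 beside another gene were also used, chosen after seeing the data, the counts of 9 genes over untreated were 5 with VPA, 3 with GEM and 1 with GEM_VPA. They were 0 for GEM_VPA over GEM, 5 for GEM_VPA over VPA and 2 for VPA over GEM. A stricter or looser fold limit changes a count by construction. Among 42 member differences, the largest shift was 0.0588 with that normalization, 0.057 with centring and 0.241 with 1 row per gene. The sign changed in 1 of 42 under each of these, CIITA for VPA over untreated in the first pair and HLA-DOA for GEM_VPA over untreated with 1 row per gene (0.01). Signal over background is unknown without detection calls, which limits the untreated levels of HLA-DPA1, HLA-DPB1, HLA-DMB, HLA-DOB and CIITA.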
